A study of Mus musculus with 16 samples.

Results

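The 10 genes described here mark macrophages of the heart: Cd68, Adgre1, Csf1r, C1qa, C1qb, C1qc, Mrc1, Lyve1, Cd163 and Ccr2. They were listed by name as markers of resident and recruited macrophages, at a time when earlier results of these data were known. Their rows were found by gene symbol in GENCODE release M21. All 10 were among the 33399 genes of the count table and all 10 were among the 16400 genes with enough counts to be tested. Ventricles of 16 wildtype C57BL/6 mice (Jackson Laboratories) had been profiled by bulk RNA sequencing. Mice with chronic kidney disease (CKD) ate chow that held 0.25% adenine in turn with plain chow for 6 weeks from the age of 8 weeks, a schedule named the high-dose regimen. Controls ate plain chow for the same time. The 4 groups, male_control, male_CKD, female_control and female_CKD, held 4 libraries each, and no genetic change was made in any of them. Libraries are numbered within a group in the order of the records, so a number names a library and pairs nothing. Titles give every library its own animal code, but the labels do not say how animals were kept or processed, so p-values measure the spread between these samples.

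Macrophages are phagocytes that clear dead cells and debris and shape the response of the heart to injury. Those seeded before birth renew themselves in the tissue and commonly carry LYVE1, the mannose receptor MRC1 and the scavenger receptor CD163, while cells that descend from blood monocytes carry CCR2, the receptor through which monocytes leave the marrow and follow chemokines. Nearly all depend on CSF1R, the receptor of the growth factors CSF1 and IL-34, and make the 3 chains of C1q, which starts the classical complement pathway.

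Each library held 10203707 to 13626039 counts. A chi-square test of replicate pairs gave 8.03 to 58.8 per degree of freedom, far above the 1 that sampling noise gives. The paired libraries thus differed by more than sampling noise, which cannot show that the samples were independent. Every library was counted as a sample of its own because each has its own animal code. Levels are given as CPM, the count of a gene relative to the size of its library, scaled for library composition. The heart muscle markers Myh6, Tnnt2, Tnni3, Actc1, Ryr2 and Pln together reached 22710 to 37300 CPM, as the ventricle label implies, and none was at 0. Library male_CKD 4 stood apart: it had the highest heart muscle sum, and its 10 macrophage genes took 0.00949% of its counts, against 0.0191% to 0.0283% in the other libraries. Results that rest on it are given with and without it. Since the tissue was sequenced in bulk, fewer macrophages and less RNA per macrophage cannot be told apart.

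On GRCm38, the assembly also named mm10, the 3 C1q genes form a cluster on chromosome 4, all on the minus strand, within 18675 bases from 136880129 to 136898803. C1qb (ENSMUSG00000036905.8) spans 136880129 to 136886187, C1qc (ENSMUSG00000036896.5) 136889804 to 136893065 and C1qa (ENSMUSG00000036887.5) 136895917 to 136898803. Cd68 (ENSMUSG00000018774.13) lies on chromosome 11 from 69664213 to 69666153, Adgre1 (ENSMUSG00000004730.14) on chromosome 17 from 57358691 to 57483527, and Lyve1 (ENSMUSG00000030787.4) on chromosome 7 from 110850607 to 110863239. Mrc1 (ENSMUSG00000026712.3) lies on chromosome 2 from 14229392 to 14332057, Cd163 (ENSMUSG00000008845.9) on chromosome 6 from 124304656 to 124330527 and Ccr2 (ENSMUSG00000049103.14) on chromosome 9 from 124101950 to 124113557. Csf1r (ENSMUSG00000024621.15) lies on chromosome 18 from 61100598 to 61132149. All 10 are protein coding. A count takes in reads from any exon, untranslated parts included. Exons of Hmgxb3 on the other strand overlie 15.1% of the exon bases of Csf1r, so part of the Csf1r count could belong to Hmgxb3. Of the 25-base words of Ccr2, 4.84% also occur in other genes, and for Cd163 the share was 1.06%.

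Per exon length the complement chains were the most abundant macrophage transcripts and Ccr2 the least. In the controls C1qa stood at 35.1 ± 6.75 CPM per kb of exon (mean ± SD, n = 8), C1qb at 31.7 ± 5.33 and C1qc at 16.9 ± 2.64. Lyve1 followed at 7.75 ± 2.53 CPM per kb, Csf1r at 5.46 ± 0.863, Mrc1 at 5.05 ± 0.533, Cd68 at 4.35 ± 0.758, Cd163 at 3.89 ± 0.985, Adgre1 at 3.12 ± 0.373 and Ccr2 at 0.704 ± 0.196. The steps from C1qb to C1qc, from C1qc to Lyve1 and from Adgre1 to Ccr2 were larger than the SD of either gene and held in 8 of 8 control libraries. The other neighbours in this order lay closer together than the larger of their SDs; C1qa exceeded C1qb in 7 of 8 libraries and Csf1r exceeded Mrc1 in 3 of 8. In CKD ventricles the order was the same except that Cd163, at 4.96 ± 1.76 CPM per kb, stood above Cd68, at 3.37 ± 0.960.

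**Figure D1:**
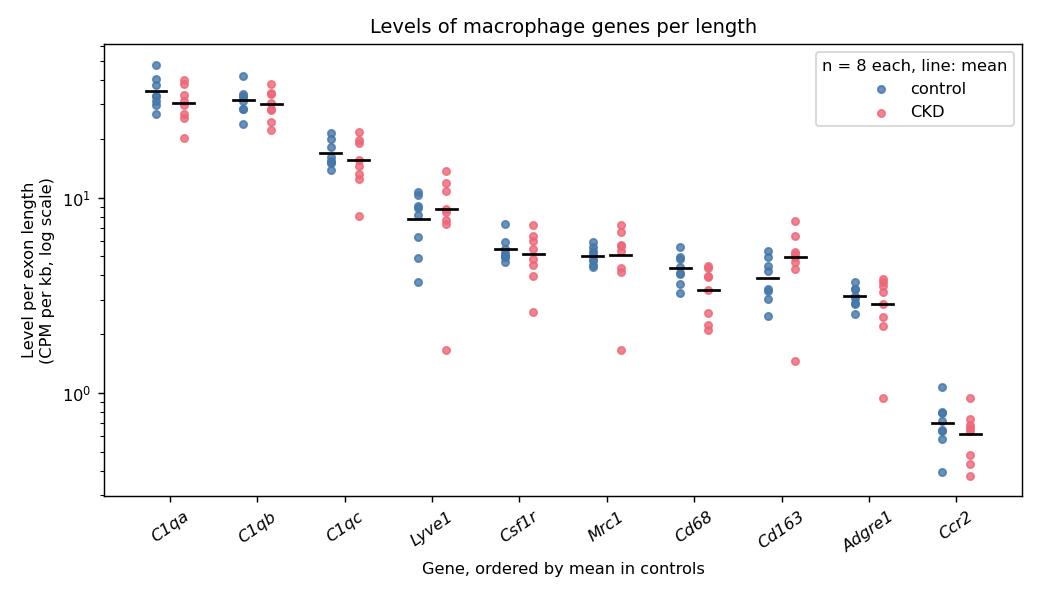
Level of each macrophage gene per exon length, in CPM per kb on a log axis, with 8 control and 8 CKD libraries as points and the group mean as a line. C1qa and C1qb lie above all other genes and Ccr2 lies lowest, with control means of 35.1, 31.7 and 0.704 CPM per kb, and single CKD points far down in Lyve1, Mrc1, Cd163 and Adgre1 belong to male_CKD 4.

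The C1q chains assemble into 1 molecule, and the mean proportions of their 3 genes were similar in controls and CKD. Of their summed level per kb, C1qa made 41.8% ± 2.06 in controls and 40.2% ± 1.27 in CKD (SD, n = 8), C1qb 37.9% ± 1.48 and 39.8% ± 2.65, and C1qc 20.3% ± 1.49 and 20.0% ± 2.08. Over all libraries the C1qa share ran from 38.46% to 45.67%, that of C1qb from 36.56% to 44.13% and that of C1qc from 16.02% to 21.94%. In male_CKD 4 the C1qb share, 44.13%, exceeded that of C1qa, 39.85%, as it did in female_CKD 2, female_CKD 4 and male_control 2. In males C1qa read 39.1, 34.5, 49.9 and 34.3 CPM in control libraries 1 to 4 and 41.7, 32.4, 39.7 and 20.9 CPM in CKD libraries 1 to 4. In females it read 32.5, 31.1, 28.02 and 42.2 CPM in controls and 30.8, 27.9, 26.5 and 35.1 CPM with CKD. The groups overlapped in both sexes, with male_control 3 the highest library and male_CKD 4 the lowest. The log2 fold change of CKD over control was -0.19 in C1qa (SE 0.14, adjusted p = 0.511), -0.074 for C1qb (SE 0.12, adjusted p = 0.786) and -0.12 for C1qc (SE 0.16, adjusted p = 0.739). Over all libraries C1qb ranged from 24.3 to 45.6 CPM and C1qc from 15.6 to 41.7 CPM, each lowest in male_CKD 4.

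Because the C1q genes varied together, the promoters of C1qb and C1qc are shown, from 250 bases before to 50 bases after the start site (RefSeq, GRCm38.p6, minus strand, read 5′ to 3′, chr4:136886151-136886450 and chr4:136892865-136893164). Capitals mark GAGGAA, or TTCCTC where it lies on the reverse strand, the purine-rich box known to be bound by PU.1, the master transcription factor of macrophages.
C1qb: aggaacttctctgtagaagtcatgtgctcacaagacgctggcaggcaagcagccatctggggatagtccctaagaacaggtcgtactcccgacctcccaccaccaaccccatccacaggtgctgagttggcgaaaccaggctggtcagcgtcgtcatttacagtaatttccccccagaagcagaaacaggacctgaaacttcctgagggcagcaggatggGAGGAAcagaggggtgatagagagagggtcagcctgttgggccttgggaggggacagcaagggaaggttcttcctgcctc
C1qc: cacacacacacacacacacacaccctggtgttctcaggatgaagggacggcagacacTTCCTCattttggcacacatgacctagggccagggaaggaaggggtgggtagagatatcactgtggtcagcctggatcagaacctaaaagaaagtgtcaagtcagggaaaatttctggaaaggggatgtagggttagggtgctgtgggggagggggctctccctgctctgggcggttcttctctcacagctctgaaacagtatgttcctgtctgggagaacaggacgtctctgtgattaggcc
The match in C1qb began at -30 from the RefSeq start site and that in C1qc at -193, on opposite strands. The GENCODE start of C1qc, 136893065, lies within the part of its window before the RefSeq start. The distance in C1qc thus depends on the start site used. RefSeq promoters were searched for 6 of the 10 genes, and 4 of the 6 held the box on either strand, against 28.3% of 32851 promoters of the same length. Promoters of the other genes were either not found or left out of the search. The 4 of 6 is therefore no count over all 10 genes, and its difference from 28.3% was not tested. Cd68 held it at 2 places, Mrc1 at 3, and Cd163 and Ccr2 at 0. A match in so short a word is a description of these letters and no measured binding site.

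Cd68, Adgre1 and Csf1r mark macrophages of any origin. Cd68 encodes a lysosomal glycoprotein of phagocytes, and its estimate was the most negative of the 10. In males it read 4.06, 4.54, 6.98 and 6.13 CPM in control libraries 1 to 4 and 4.98, 5.47, 4.91 and 3.22 CPM in CKD libraries 1 to 4. Female libraries read 5.10, 5.17, 6.23 and 5.52 CPM in controls and 2.80, 2.63, 4.23 and 5.64 CPM with CKD. Female_CKD 1, 2 and 3 lay below all 4 female controls and female_CKD 4 lay among them, while the male groups overlapped. Over all mice the means were 5.47 ± 0.953 CPM in controls and 4.24 ± 1.21 CPM with CKD (SD, n = 8), with 3 of 8 CKD libraries below every control. The log2 fold change was -0.37 (SE 0.17, 95% interval -0.73 to -0.00046) and did not pass the adjusted threshold (unadjusted p = 0.0497, adjusted p = 0.325). The gene rests on 26 to 84 counts per library, and the unadjusted p ranged from 0.0171 without female_CKD 4 to 0.104 without male_control 3 or female_CKD 1. It was under 0.05 in 5 of the 16 fits with 1 library left out and in 7 of 11 other settings. It was 0.114 in limma-voom, 0.111 among libraries with title code number 6 alone and 0.107 in the fit that omits both male_CKD 4 and female_control 2. In limma-voom Cd163 was instead the 1 gene of the 10 with an unadjusted p under 0.05, against 19.3% of all genes, as it was when those 2 libraries were omitted, against 17.5%.

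Adgre1, which encodes the F4/80 antigen, read 8.20 to 10.96 CPM in male controls, 9.35 to 12.02 in female controls and 7.13 to 11.4 with CKD in females. With CKD in males it read 9.23, 11.9, 12.3 and 3.03 CPM in libraries 1 to 4, so that the range of the group was set by male_CKD 4. Its log2 fold change was -0.14 (SE 0.20, adjusted p = 0.768). Csf1r, the receptor that macrophages need to survive, read 29.4, 31.4, 42.5 and 34.4 CPM in male controls and 31.4, 41.7, 34.7 and 15.1 CPM with CKD. In females it was the steadiest of the genes in controls, with a mean of 28.6 ± 1.27 CPM (SD, n = 4) against 28.4 ± 6.00 CPM with CKD. The groups overlapped in both sexes, and the log2 fold change was -0.087 (SE 0.16, adjusted p = 0.811).

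Mrc1, Lyve1 and Cd163 mark resident macrophages. Their fold changes were the 3 positive values of the 10. Lyve1 encodes a hyaluronan receptor that lymphatic endothelium carries too, and it varied more between libraries than any other of the genes, with a coefficient of variation of 37.2% over the 16 libraries. In males it read 23.9, 25.7, 14.3 and 10.8 CPM in control libraries 1 to 4 and 31.6, 21.5, 34.5 and 4.83 CPM in CKD libraries 1 to 4. In females it read 31.3, 30.04, 18.4 and 26.5 CPM in controls and 40.2, 22.3, 24.8 and 25.5 CPM with CKD. Both the highest library, female_CKD 1, and the lowest, male_CKD 4, were CKD libraries. The log2 fold change was 0.19 (SE 0.29, 95% interval -0.41 to 0.80, adjusted p = 0.763).

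Cd163 encodes the receptor that takes up haemoglobin bound to haptoglobin. In males it read 24.3, 29.0, 16.6 and 13.6 CPM in control libraries 1 to 4 and 28.0, 34.6, 27.2 and 7.96 CPM in CKD libraries 1 to 4. The females read 18.2, 27.1, 18.5 and 22.9 CPM in controls and 25.5, 28.7, 23.4 and 41.3 CPM with CKD. Of the 8 CKD libraries 2 lay above every control and 1, male_CKD 4, below every control. The means were 21.3 ± 5.38 CPM in controls and 27.1 ± 9.60 CPM with CKD (SD, n = 8), and the log2 fold change was 0.34 (SE 0.23, 95% interval -0.15 to 0.83, adjusted p = 0.493). Without male_CKD 4 it was 0.48 (SE 0.16, 95% interval 0.13 to 0.83), with an unadjusted p of 0.00997 and an adjusted p of 0.196. It was then the 1 gene of the 10 at an unadjusted p under 0.05, where 14.7% of all genes tested reached that level and 0.0603% passed the adjusted threshold. Male_CKD 4 was set apart partly by its low level of these genes. Leaving it out raises this estimate, so the p without it is given as a description.

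Mrc1 encodes the mannose receptor CD206, an endocytic lectin. In males it read 28.0, 37.6, 30.5 and 28.7 CPM in control libraries 1 to 4 and 33.8, 42.4, 45.9 and 10.5 CPM in CKD libraries 1 to 4. In females it read 32.8, 35.7, 30.5 and 33.8 CPM in controls and 36.0, 26.5, 27.6 and 36.5 CPM with CKD. Thus male_CKD 2 and 3 stood above every control and male_CKD 4 far below every library, while the female groups overlapped. The log2 fold change was 0.011 (SE 0.20, 95% interval -0.41 to 0.43, adjusted p = 0.983).

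The promoters of Mrc1 and Cd163 (RefSeq, GRCm38.p6, plus strand, chr2:14229164-14229463 and chr6:124304401-124304700) are shown because these genes varied together over the libraries. Pearson's r of their log2 CPM was 0.792, and 0.504 without male_CKD 4. Only the Mrc1 promoter held the exact word GAGGAA on either strand, again in capitals. Other forms of the PU.1 box were not searched.
Mrc1: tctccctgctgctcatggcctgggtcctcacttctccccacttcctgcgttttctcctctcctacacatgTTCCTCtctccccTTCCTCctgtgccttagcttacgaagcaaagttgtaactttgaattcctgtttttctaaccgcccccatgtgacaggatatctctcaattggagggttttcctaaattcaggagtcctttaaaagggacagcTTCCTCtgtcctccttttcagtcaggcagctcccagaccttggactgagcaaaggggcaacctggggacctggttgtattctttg
Cd163: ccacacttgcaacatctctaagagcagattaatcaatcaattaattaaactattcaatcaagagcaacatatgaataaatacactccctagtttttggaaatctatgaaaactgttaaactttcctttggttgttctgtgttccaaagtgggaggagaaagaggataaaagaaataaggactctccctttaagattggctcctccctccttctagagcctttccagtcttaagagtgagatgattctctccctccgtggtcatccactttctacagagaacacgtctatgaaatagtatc
The 3 matches in Mrc1 began at -180, -167 and -35 from the start site, all on the reverse strand.

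Ccr2, the monocyte chemokine receptor, was the scarcest of the 10 per exon length, with 27 to 87 counts per library. It read 3.92, 5.41, 7.23 and 4.34 CPM in male control libraries 1 to 4 and 4.32, 3.26, 6.34 and 2.94 CPM in male CKD libraries 1 to 4. Female libraries gave 4.84, 5.34, 4.34 and 2.66 CPM in controls and 2.55, 4.95, 4.45 and 4.62 CPM with CKD. Groups overlapped in both sexes, and the log2 fold change was -0.19 (SE 0.20, 95% interval -0.61 to 0.24, adjusted p = 0.670). The log2 ratio of Ccr2 to Lyve1, the recruited against the resident marker, was -2.18 ± 0.741 in controls and -2.43 ± 0.884 with CKD (SD, n = 8). The difference of -0.26 was within the spread between libraries (two-sided exact permutation within each sex over 4900 arrangements, p = 0.495, smallest possible p = 0.0004082).

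**Figure D2:**
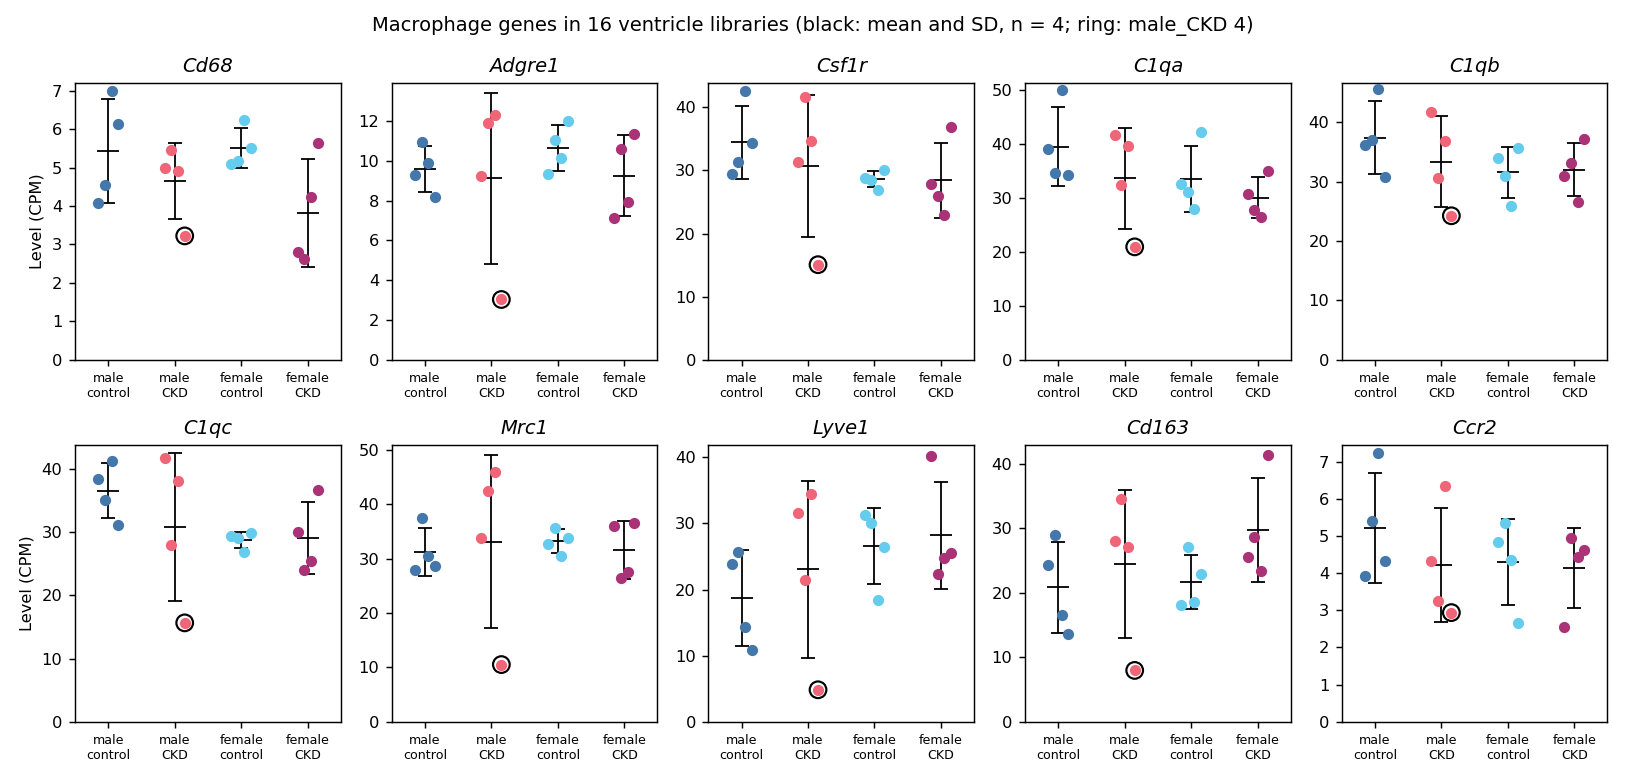
Level of each macrophage gene in CPM in the 16 libraries by group, with the mean and SD of 4 libraries in black and male_CKD 4 ringed. The control and CKD points overlap for every gene, and male_CKD 4 is the lowest point for 8 of the 10 genes, for instance 4.83 CPM of Lyve1 against 21.5 to 34.5 in the other male CKD libraries.

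Across the 10 genes CKD left no called difference. With CKD against control, 0 of 10 passed the adjusted threshold of 0.05 in edgeR's quasi-likelihood F test, which allowed for sex, where 0.0854% of all genes tested passed, and 0 of 10 passed in DESeq2, where 2.43% of all genes did, and 0 in limma-voom, where 1.21% did. At an unadjusted p under 0.05 there was 1, Cd68, against 15.4% of all genes. Of the 10 estimates 7 were negative, where 49.8% of all genes were, with a median of -0.10 against 0.0017 over all genes. The ranges of the 8 control and 8 CKD libraries overlapped for all 10, while 0.201% of all genes had ranges that did not overlap. The 95% intervals bound what could have been missed: they ran from -0.33 to 0.18 for C1qb, the narrowest, and from -0.41 to 0.80 for Lyve1, the widest.

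**Figure D3:**
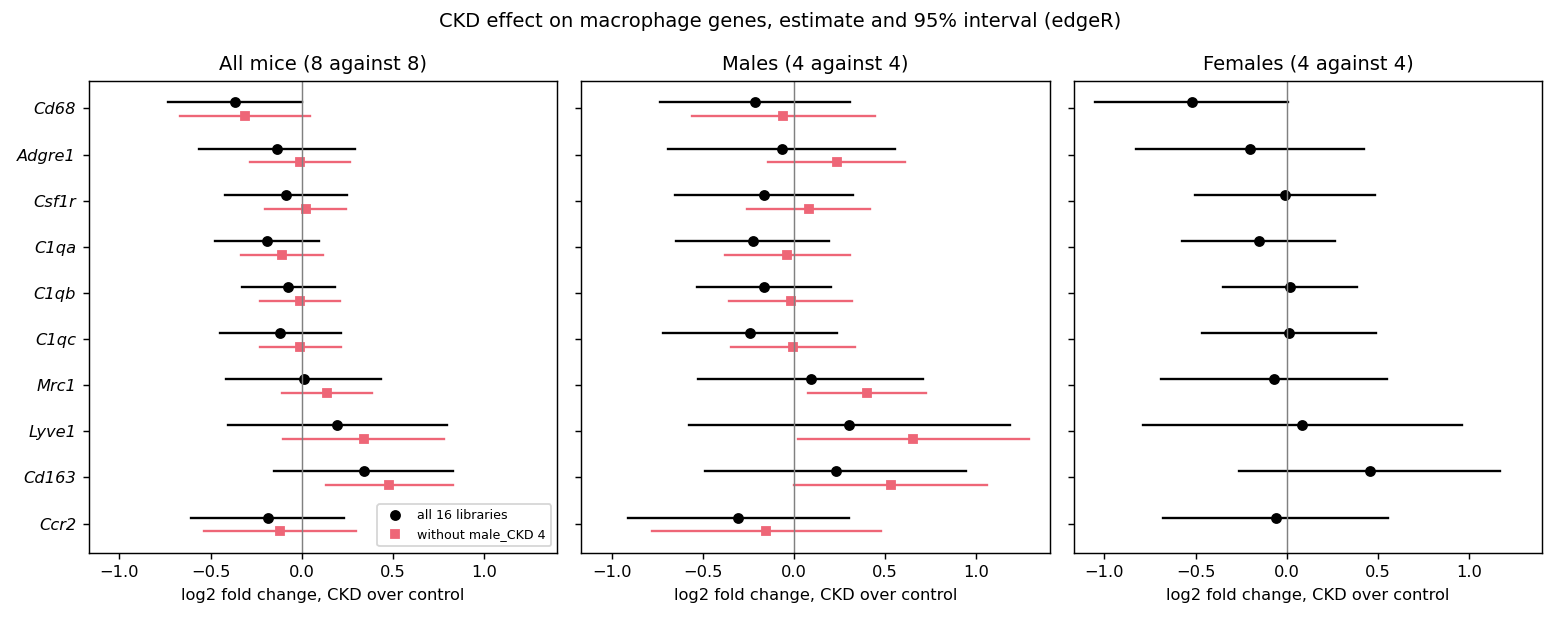
Log2 fold change of CKD over control with its 95% interval for each macrophage gene, over all mice and in each sex, in black with all 16 libraries and in red without male_CKD 4. In males without that library the intervals of Mrc1, Lyve1 and Cd163 lie above 0, at 0.40, 0.65 and 0.53, but no adjusted p passed the threshold. That library was the lowest of all for these genes, so leaving it out raises their estimates.

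Neither sex showed a called difference. In males 0 of 10 passed the adjusted threshold, where 0% of all genes did, and 0 of 10 had an unadjusted p under 0.05, against 6.88% of all genes. Of the male estimates 7 were negative, against 48.6% of all genes (median -0.16), from -0.31 for Ccr2 (SE 0.29) to 0.30 for Lyve1 (SE 0.42). In females 0 of 10 passed, against 0.0549% of all genes, and 0 of 10 had an unadjusted p under 0.05, against 8.34%. Of the female estimates 6 were negative, against 50.7% (median -0.035), from -0.52 for Cd68 (SE 0.25, unadjusted p = 0.0527, adjusted p = 0.603) to 0.46 for Cd163 (SE 0.34, adjusted p = 0.732). The female groups of Cd163 overlapped, though female_CKD 4, at 41.3 CPM, was the highest of all libraries.

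The difference of the CKD effect between the sexes was not called for any gene: 0 of 10 passed the adjusted threshold (0% of all genes) and 0 of 10 an unadjusted p under 0.05 (1.68% of all genes). The estimates, female minus male, ran from -0.31 for Cd68 (SE 0.35) to 0.25 for C1qc (SE 0.32). Between control females and males 0 of 10 passed, against 0.0366% of all genes, and 0 of 10 had an unadjusted p under 0.05, against 6.84%. Lyve1 had the most positive value there, 0.50 in females over males (SE 0.42, adjusted p = 0.693), with 26.6 ± 5.78 CPM in females and 18.7 ± 7.25 in males (SD, n = 4). C1qc had the most negative, -0.34 (SE 0.23, adjusted p = 0.647), with 28.8 ± 1.31 against 36.5 ± 4.35 CPM. The 4 female controls of C1qc, 26.9 to 29.9 CPM, all lay below the 4 male controls, 31.2 to 41.3 CPM; it was the 1 gene of the 10 whose control ranges did not overlap, against 3.93% of all genes. With CKD 0 of 10 differed between the sexes, against 0.0427% of all genes, and 0 of 10 at an unadjusted p under 0.05, against 15%.

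A single library, male_CKD 4, carried much of the spread. It was the lowest of all 16 libraries for 8 of the 10 genes and the third lowest for Cd68 and Ccr2. Lyve1 stood at 16.6% of the mean of the other 3 male CKD libraries, Mrc1 at 25.8%, Cd163 at 26.6%, Adgre1 at 27.2%, Csf1r at 42.0%, C1qc at 43.6%, C1qa at 55.2% and C1qb at 66.6%. Of the 18 further gene lists, 13 had their lowest sum in the same library, and the lymphocyte, CSF1R ligand, hyaluronan handling, neutrophil and heart muscle lists did not. The sum of 7 fibroblast markers (Pdgfra, Dcn, Lum, Col1a1, Tcf21, Dpt, Pcolce) stood at 19.4% of the other male CKD mean, that of 6 pericyte markers at 33.3% and that of 7 endothelial markers at 49.0%, while the lymphocyte sum stood at 88.2%, the neutrophil sum at 77.0% and the heart muscle sum at 134.8%. Its neutrophil sum of 12.98 CPM was the lowest of the male CKD libraries, which reached 18.1 CPM. It lay within the range of the male controls, 3.58 to 23 CPM. The part that the makeup of this sample has in its macrophage values was not tested.

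Without male_CKD 4 the estimates moved upwards. Over all mice 6 of 10 were negative, against 51.6% of all genes (median -0.0071), with Lyve1 at 0.34 (SE 0.21, adjusted p = 0.469), Mrc1 at 0.14 (SE 0.12, adjusted p = 0.602) and Cd68 at -0.31 (SE 0.17, adjusted p = 0.407). In males alone 5 of 10 were negative, against 47.8% (median 0.037). There Mrc1 had 0.40 (SE 0.15, unadjusted p = 0.0189, adjusted p = 0.791), Lyve1 0.65 (SE 0.30, unadjusted p = 0.0442, adjusted p = 0.864) and Cd163 0.53 (SE 0.25, unadjusted p = 0.0496, adjusted p = 0.864). These 3 of 10 genes were at an unadjusted p under 0.05 where 5.74% of all genes were, and 0% of all genes passed the adjusted threshold. Male_CKD 4 was set apart partly by its low level of the 10 genes and was the lowest library for these 3. Leaving it out raises their CKD estimates, so the 3 of 10 is no independent support for a CKD effect. The sum of the 10 genes was 232 ± 23.2 CPM in controls (n = 8) and 227 ± 57.0 CPM with CKD (n = 8), or 244 ± 33.4 CPM in the 7 CKD libraries left.

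**Figure D4:**
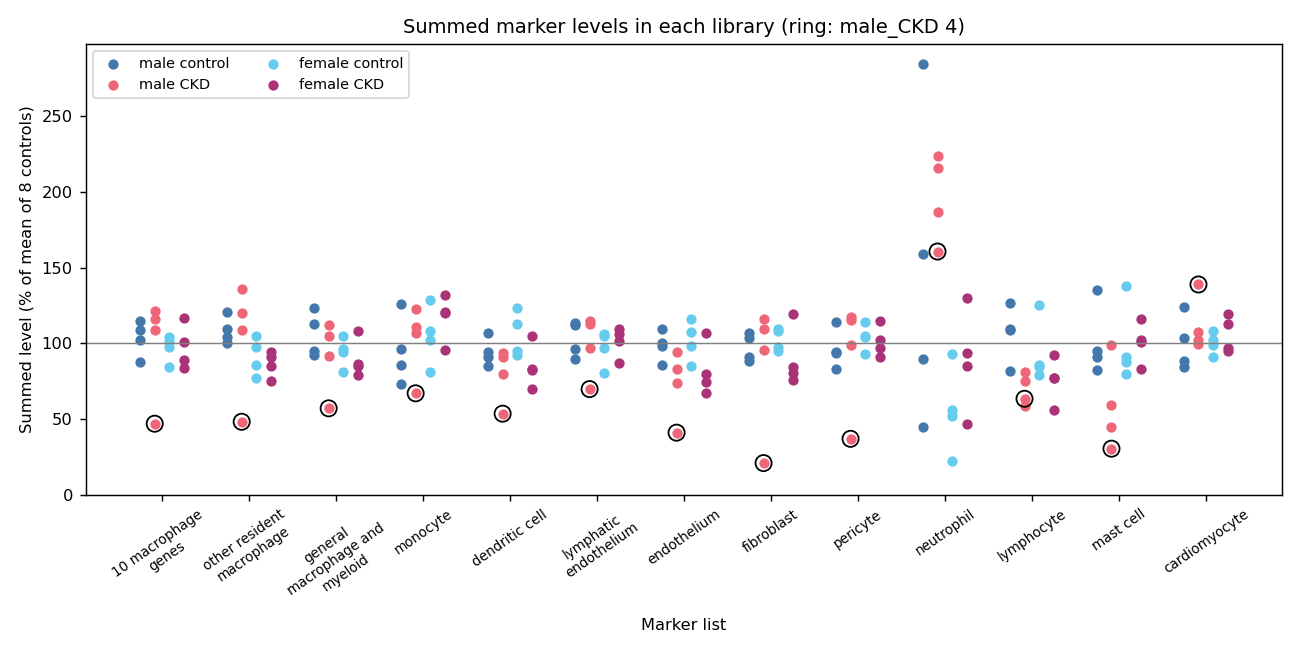
Summed level of the 10 genes and of the lists that mark a cell type in the 16 libraries, as a percentage of the mean of the 8 controls, with male_CKD 4 ringed. That library lies lowest in every list plotted but lymphocytes, neutrophils and heart muscle, where it is the highest for heart muscle, and the points of the other CKD libraries overlap the controls in each list.

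Each title code holds a number behind a letter C, which the sources used here do not explain. In males the Lyve1 ranges of number 6 and of the other numbers did not overlap. The 4 male libraries with number 6, 2 of them controls, read 23.9 to 34.5 CPM, and the other 4, again 2 controls, read 4.83 to 21.5 CPM. Those other 4 carry differing numbers and include male_CKD 4. How many of all genes split in this way was not counted, so the split is given as a description. Cd163 was less clearly split, at 24.2 to 29.0 against 7.96 to 34.6 CPM. In females Lyve1 read 18.4 to 40.2 CPM in the 6 libraries with number 6 and 25.5 to 26.5 CPM in the other 2. With this number as a factor the log2 fold change over all mice was 0.079 for Lyve1, 0.23 for Cd163 and -0.11 for Mrc1, the last a change of sign. Within the 10 libraries with number 6 these values were 0.24, 0.18 and 0.026. None was called.

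Likeness between the genes was measured as Pearson's r of log2 CPM over the 16 libraries. The libraries share trends in depth and composition, so r is given as a description. Among the 45 pairs the median r was 0.543, and 25 pairs exceeded 0.5. Without male_CKD 4 the median was 0.265 and 10 pairs exceeded 0.5. The C1q chains were alike with or without it: r was 0.904 and 0.874 for C1qa with C1qb, 0.898 and 0.845 for C1qa with C1qc, and 0.855 and 0.831 for C1qb with C1qc. The resident markers were less alike once that library was left out. For Lyve1 with Mrc1 r went from 0.826 to 0.481, for Lyve1 with Cd163 from 0.80 to 0.563 and for Mrc1 with Cd163 from 0.792 to 0.504. Cd68 and Lyve1 had the lowest r of any pair, -0.019 with all libraries and -0.50 without male_CKD 4.

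**Figure D5:**
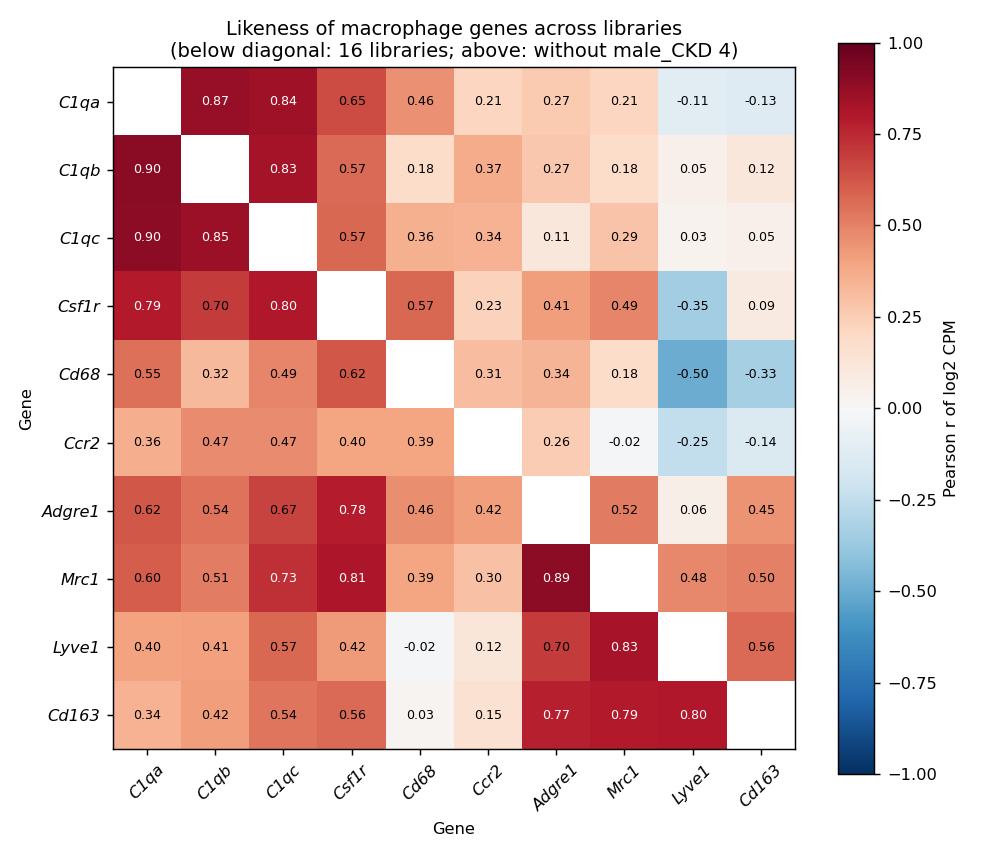
Pearson's r of log2 CPM for each pair of macrophage genes, over 16 libraries under the diagonal and over 15, without male_CKD 4, above it. The 3 C1q chains form the block of high values on both sides, while the block of Adgre1, Mrc1, Lyve1 and Cd163 is paler above the diagonal, where Lyve1 with Cd68 is -0.50.

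Among 12623 genes compared, those like Ccr2 included Thsd1, with r = 0.763 over 16 libraries and 0.753 without male_CKD 4, and Gpr183 (0.753, 0.713). Genes known from fibroblasts and pericytes, such as Dcn and Rgs5, were among those most like Mrc1 and Adgre1. Mrc1 was closest to C1s1 (0.966, 0.850), Rgs5 (0.962, 0.861) and Dcn (0.962, 0.869), and Adgre1 to Pi15 (0.934, 0.683), C1s1 (0.932, 0.703) and Dcn (0.931, 0.640). Csf1r was closest to Adamts12 (0.918, 0.818), Pid1 (0.907, 0.784) and Gsn (0.90, 0.763). Among the complement chains C1qc was closest to Scara5 (0.924, 0.835), Gprc5b (0.917, 0.846) and Gpr182 (0.888, 0.763), C1qa to Olfml3 (0.825, 0.715), H2-Q1 (0.819, 0.763) and Plxnc1 (0.816, 0.699), and C1qb to Mfap2 (0.817, 0.751), Bmper (0.814, 0.751) and Apoe (0.788, 0.709). No gene was named for more than 1 of these 3 chains. Genes like Cd68 included Shisa5 (0.930, 0.923) and Sfrp2 (0.906, 0.892). Lyve1 and Cd163 had Slc43a3 in common (0.920, 0.791 and 0.902, 0.794), beside Cpne8 (0.932, 0.823) and Entpd1 (0.932, 0.886) for Lyve1 and Ahsg (0.911, 0.842) and Selenop (0.891, 0.825) for Cd163. Several of these values rest in part on male_CKD 4, and the fall was largest for Adgre1.

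The ligands of the receptors were measured beside them. Of the growth factors of CSF1R, 0 of 2 passed the threshold for CKD against control. Csf1 stood at 35.7 ± 9.54 CPM in controls and 31.4 ± 8.84 with CKD (SD, n = 8), an estimate of -0.19 on the log2 scale (SE 0.17, adjusted p = 0.608), and Il34 had -0.19 (SE 0.21, adjusted p = 0.680). Of the 4 chemokine genes listed here as CCR2 ligands, 0 passed the adjusted threshold. Binding to mouse CCR2 was not measured. Among them 1 positive and 1 negative estimate had an unadjusted p under 0.05, against 15.4% of all genes. Ccl8 read 0.263 to 1.496 CPM in controls and 0.594 to 1.82 CPM with CKD, 4 of 8 CKD libraries lying above every control (log2 fold change 0.93, SE 0.29, adjusted p = 0.141). Ccl7 read 1.07 to 2.97 CPM in controls and 0.505 to 2.77 CPM with CKD, 6 of 8 CKD libraries lying below every control (-0.89, SE 0.33, adjusted p = 0.208). Ccl2 had -0.55 (SE 0.42, adjusted p = 0.542) and Ccl12 0.19 (SE 0.39, adjusted p = 0.831). All 4 were near the lower limit of measurement, at 3 to 57 counts per library.

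What the macrophage proteins act on showed no called change either. Over all genes tested, 49.8% of the estimates were negative. Among 7 partners of C1q and early complement genes 0 passed, and 2 of 7 estimates were negative (median 0.082); C4b had 0.44 (SE 0.26, adjusted p = 0.425) and the central component C3 0.19 (SE 0.15, adjusted p = 0.540). Among 4 tested of 5 genes that handle haemoglobin and haem beside CD163, 0 passed, with the haptoglobin gene Hp at 0.27 (SE 0.31, adjusted p = 0.686) and the scavenger receptor gene Lrp1 at -0.41 (SE 0.30, adjusted p = 0.518). Among 3 tested of 4 genes of hyaluronan, the ligand of LYVE1, 0 passed and all 3 estimates were negative (median -0.40). Hyal2, a hyaluronidase, read 20.9 to 31.9 CPM in controls and 13.7 to 26.5 CPM with CKD, 5 of 8 CKD libraries lying below every control (-0.40, SE 0.13, adjusted p = 0.149). The hyaluronan synthase gene Has2 had -0.72 (SE 0.49, adjusted p = 0.491).

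Other macrophage and myeloid genes were likewise uncalled in edgeR. Of 12 further markers of resident macrophages 0 passed and 7 estimates were negative (median -0.10), the same median as that of the 10; Folr2, a folate receptor, had -0.44 (SE 0.26, adjusted p = 0.426) and the scavenger receptor gene Stab1 -0.39 (SE 0.24, adjusted p = 0.449). Of 22 general macrophage and myeloid genes 0 passed, 20 estimates were negative (median -0.15) and 3 of these had an unadjusted p under 0.05, where 49.8% of all genes were negative and 15.4% had such a p. The lowest p belonged to Cx3cr1, the fractalkine receptor. It read 2.07, 4.26, 6.32 and 3.96 CPM in male control libraries 1 to 4 and 2.13, 1.96, 1.79 and 1.04 CPM in male CKD libraries 1 to 4. In females it read 3.65, 4.47, 4.34 and 1.87 CPM in controls and 2.21, 2.12, 2.15 and 2.13 CPM with CKD. Controls male_control 1 and female_control 4 lay within the range of the CKD libraries and the other 6 controls above all of them. The log2 fold change was -0.99 (SE 0.23) with an adjusted p of 0.0946 in edgeR, and 0.00903 in DESeq2, which called it; over all settings run its adjusted p lay between 0.00903 and 0.202. Irf8, a transcription factor of the myeloid lineage, had -0.43 (SE 0.14, adjusted p = 0.150). Of 4 tested inflammatory and lipid-associated macrophage genes, of 8 listed, 0 passed (median -0.018), with Nos2 at -0.89 (SE 0.37, adjusted p = 0.265) and Il1b at 0.51 (SE 0.32, adjusted p = 0.454).

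Markers of cells that share some of the 10 genes were read in the same way, where 49.8% of all genes had negative estimates. Of 8 tested monocyte markers 0 passed, 4 were negative (median -0.0245), and Ly6c2 had 0.29 (SE 0.15, adjusted p = 0.350) and Itgal -0.48 (SE 0.17, adjusted p = 0.184). Of 6 lymphatic endothelial markers, cells that also carry LYVE1, 0 passed and 3 were negative (median 0.016). Their sums were 137 to 194 CPM in controls and 119 to 196 CPM with CKD. Prox1 alone had a control mean of 92.2 CPM, of a mean sum of 170.7 CPM, so the sum weighs this 1 gene most. Reln had 0.48 (SE 0.23, adjusted p = 0.331) and Flt4 -0.55 (SE 0.28, adjusted p = 0.355). Of 4 tested dendritic cell markers, of 8 listed, 0 passed and all 4 were negative (median -0.25). Itgax had -0.76 (SE 0.25, adjusted p = 0.164), Zbtb46 -0.32 (SE 0.13, adjusted p = 0.239) and Clec9a -0.0046 (SE 0.18, adjusted p = 0.993). Zbtb46 alone had a control mean of 22.05 CPM, of a mean sum of 30.66 CPM, so it weighs most in the sum of this list. In the lists of other cells 0 genes passed in edgeR as well, and the adjusted p of the genes named lay between 0.0946 and 0.461. Before adjustment, p lay under 0.05 for 2 genes each of the lymphocyte, fibroblast, endothelial and pericyte lists (all lower with CKD), 2 heart muscle genes (higher), 1 mast cell gene (lower) and 0 neutrophil genes, against 15.4% of all genes tested. Of 4 tested neutrophil markers 0 were negative (median 0.58), with S100a9 at 0.66 and Cxcr2 at 0.64. All 5 tested lymphocyte markers (median -0.58) and all 4 mast cell markers (median -0.365) were negative, with the B cell genes Ms4a1 at -0.88 and Cd79a at -0.76 and the protease genes Mcpt4 at -0.55 and Cpa3 at -0.48. All 7 fibroblast markers (median -0.40) and 5 of 6 pericyte markers (median -0.30) were negative, with Pcolce at -0.39, Col1a1 at -1.24, Higd1b at -0.57 and Vtn at -0.55. Heart muscle markers had a median of 0.12, with the troponin genes Tnnt2 at 0.36 and Tnni3 at 0.26. All 7 endothelial markers were negative (median -0.40). In no list was a marker at 0 in every library. The endothelial genes Kdr, at -0.72 (SE 0.18, adjusted p = 0.0946), and Cldn5, at -0.78 (SE 0.20, adjusted p = 0.107), had lower p than any of the 10 macrophage genes. In DESeq2 both were called, with adjusted p of 0.0153 for Kdr and 0.0184 for Cldn5. The part that other cell types have in the macrophage values was not tested.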

How the data were processed

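Total RNA of mouse ventricles had been sequenced on an Illumina HiSeq2500 as paired-end reads, per the labels' protocols. For each of the 16 libraries the authors deposited a column of raw counts, 1 row per gene. The submitters' processing notes name STAR 2.6.1d, featureCounts (Subread 1.6.3), DESeq2 1.30.1, FastQC and MultiQC, and the genome mm10. Annotation release, strand setting and the handling of reads with several matches: not given in the sources used here. Genes on opposite strands and genes with shared sequence could therefore exchange counts. Of 33399 gene identifiers, 33367 matched GENCODE release M21.

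Counts were tested with edgeR 4.0.16 in R 4.3.3. Libraries were scaled by TMM, and filterByExpr (at least 10 counts, total of at least 15) kept 16400 genes. CKD was compared with control by the quasi-likelihood F test with a term for sex, and contrasts within sex came from a model with the 4 groups as levels. Adjusted p-values are two-sided Benjamini-Hochberg values over all genes tested, with a threshold of 0.05. Log2 CPM used a prior count of 2. The code was tested on simulated data. Totals of 10203707 to 13626039 counts leave counting error small for most of the 10 genes. Cd68 and Ccr2 rest on fewer counts, and in male_CKD 4 Adgre1 had 32 counts and Lyve1 51. Of the 38 other genes named, 14 had under 10 counts in at least 1 library.

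The 10 genes, the 18 further lists and the tests were chosen with earlier results of these data known. The rule names the 10 genes, all tested ligands of CSF1R and CCR2, the 2 genes with the lowest p of each other list, and, for each of the 10, the 3 other protein-coding genes of highest r with a mean log2 CPM of at least 0, some of which are not reported here. Alternatives were voom with sample weights (limma 3.58.1), DESeq2 1.42.0, RLE and upper-quartile scaling, mitochondrially encoded genes left out, no filter, a filter of 1 CPM in 8 libraries, title code number as a term or number 6 alone, no sex term, and libraries left out. Values without male_CKD 4 for likeness and marker sums, fits of each sex alone for single genes, and all settings for the other named genes and for the count over all genes were chosen after seeing the data.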

Additional observations from a re-analysis of the deposited data

Results flagged for a closer look

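Of 44 groups of 4 libraries tested (the 10 genes and the log2 ratio of Ccr2 to Lyve1 in each group), 1 had a library far from the others by Dixon's test. The Ccr2 to Lyve1 log2 ratio in female_CKD 1 was -3.89, against -2.43 to -2.14 in the other 3 female CKD libraries. Its gap to the nearest library was 0.831 of the range of the group, just past the critical value of that test. Chance alone flags about 1 in 20 such groups. In this library Lyve1 was the highest of all libraries, at 40.2 CPM, and Ccr2 the lowest, at 2.55 CPM. Without female_CKD 1 the difference of the ratio between CKD and control was -0.06 (exact permutation p = 0.853), against -0.26 with it.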

How the results depend on the processing

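In all 6 comparisons 0 of the 10 genes were called under every setting run, with 0 to 0 called when any 1 library was left out. The number of genes called over all genes for CKD against control, 14 in edgeR, depended on the setting: 398 in DESeq2, 199 in limma-voom, 234 with the title code number as a factor, 53 with no filter, 22 with male_CKD 4 and female_control 2 both left out and 8 with number 6 alone. It ran from 6 without male_control 4, male_CKD 1, female_control 3 or female_CKD 1, 2 or 3 to 37 without male_control 2 and 43 without female_CKD 4; it was 8 without male_control 3 or female_control 4 and 9 without female_control 1. The Ccr2 to Lyve1 difference ran from -0.50 without male_CKD 4 to -0.061 without female_CKD 1, and from -0.46 with Cd163 to -0.095 with Mrc1 in place of Lyve1.

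Of 310 alternative values for the 30 fold changes of the 10 genes (all mice, males, females), 23 changed sign, and none was called. In limma-voom these were Csf1r over all mice (0.013), Cd68 (0.048), Adgre1 (0.21) and Csf1r (0.12) in males, and C1qb (-0.034) and C1qc (-0.066) in females. With male_CKD 4 and female_control 2 both left out they were Adgre1 (0.0053) and Csf1r (0.012) over all mice, Adgre1 (0.21) and Csf1r (0.055) in males, and C1qb (-0.013), C1qc (-0.0043) and Ccr2 (0.040) in females. With the title code number as a factor they were Mrc1 over all mice (-0.11) and in males (-0.16) and Cd163 in males (-0.056), and with number 6 alone C1qb (0.035). Without mitochondrially encoded genes they were Mrc1 over all mice (-0.0068) and C1qb (-0.012) and C1qc (-0.018) in females. With no filter C1qc in females had -0.0031, and in the fit of the 8 female libraries C1qb had -0.036 and C1qc -0.042. The cause of these changes of sign was not tested.

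Of 480 values with 1 library left out, 35 changed sign. Over all mice Csf1r ran from -0.18 to 0.022 and Mrc1 from -0.086 to 0.14. In males Adgre1 ran from -0.24 to 0.23, Csf1r from -0.35 to 0.080 and Mrc1 from -0.11 to 0.40, each highest without male_CKD 4. In females Csf1r ran from -0.16 to 0.081, C1qb from -0.093 to 0.096, C1qc from -0.12 to 0.071, Lyve1 from -0.13 to 0.18 and Ccr2 from -0.26 to 0.11. Over all mice Ccl12 ran from -0.21, without male_CKD 3, to 0.36. Kdr and Cldn5 were called under 3 settings each, and Cx3cr1 and Tnnt2 under DESeq2.

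No paired analysis was possible because the labels give no replicate numbers that the groups share. Depth limits Cd68 and Ccr2, with as few as 26 and 27 counts in a library, and Adgre1 in male_CKD 4, with 32. It also limits the CCR2 ligands, and Cd79a, Cxcr2, S100a9, Cpa3, Has2, Itgax, Ms4a1, Il1b, Folr2 and Mcpt4, each with 1 to 9 counts in their lowest library.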
